A study of Homo sapiens with 27 samples.

Results

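VTI1A and TCF7L2 are neighbouring genes on the long arm of human chromosome 10, both transcribed from the plus strand. In build GRCh38, VTI1A spans chr10:112446988-112855368 (408.4 kb), TCF7L2 spans chr10:112950247-113167678 (217.4 kb), and 94.9 kb lie between them. The locus was selected on the number of insertion sites listed in VTI1A, which ranks among the genes with most, so the number of sites in VTI1A is described here without a test. All sites that fell within these bounds were taken. Over the 27 libraries they came to 2988 distinct positions of 2955325 in the whole series, with 2073 in VTI1A, 668 in TCF7L2 and 247 in the gap.

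VTI1A encodes a SNARE protein, one of the membrane-anchored proteins that pair to fuse vesicles, and it acts in traffic between endosomes and the trans-Golgi network. TCF7L2 encodes an HMG-box transcription factor that binds DNA together with beta-catenin and is a main nuclear effector of Wnt signalling in intestinal epithelium. Fusions that join the 5′ end of VTI1A to TCF7L2 have been described in colorectal tumours. PiggyBac transposons insert mostly at the bases TTAA and duplicate them, so each site is a single position, as a rule a TTAA. A library samples the positions at which an insertion was made, survived selection and was read.

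The insertions were made in HCT116, an established human colorectal carcinoma line, with self-reporting transposons, which transcribe across their own end into the neighbouring DNA so that the site can be read from RNA. Every group received such a transposon and was then held in 3 µg/ml puromycin for 2 weeks, and no library without a transposase was analysed here. The 9 groups have 3 libraries each. Wild-type transposon was combined with piggyBac (WT_PB), with its hyperactive form (WT_hyPB), with re-engineered piggyBac (WT_rePB) or with the re-engineered form of the hyperactive enzyme (WT_rehyPB). The short transposon was set with wild-type piggyBac (short_PB) or the hyperactive enzyme (short_hyPB), and a symmetric transposon with the re-engineered (sym_rePB) or re-engineered hyperactive enzyme (sym_rehyPB). In the last group a transposon labelled wild-type was combined with piggyBat (WT_PBat), a related transposase from a bat. The labels do not say which changes re-engineered, short and symmetric stand for, nor whether replicates were separate transfections. P-values therefore measure at most the spread between these libraries, and in a case named below only counting error.

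Depth separates the groups. The 12 libraries of the 4 wild-type piggyBac groups held between 336333 and 570362 distinct sites, and the other 15 between 2814 and 9212. Levels are therefore given per 10000 distinct sites of the library, and again within the 2814 tallest sites of each library, where peak height is the maximum read coverage of a peak. In 2 groups a pair of libraries shared far more positions than the others. The first 2 WT_hyPB libraries had 75.4% and 76.3% of their positions in common, and WT_PBat replicates 1 and 3 had 52.5% and 42.5%, so neither pair counts as fully separate. Other pairs of replicates shared between 7.45% and 29.0%.

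Target sites that fell within RefSeq promoter windows (250 bases before to 50 after a transcript start, GRCh38.p14) could be read as sequence and show what a site is. They are given on the plus strand with the 4 bases of the site in capitals.
VTI1A, chr10:112447138-112447167: gaacttacttatcTTAAagtcggagcggaa
VTI1A, chr10:112447048-112447077: ggaaaaaacgcttCTAAtgatccctcagaa
TCF7L2, chr10:112950208-112950237: ctccggcatctcaTTAAggcagtgtgttcc
TCF7L2, chr10:113126383-113126412: aTTAAagcgtaatttcactggagaactgca

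The VTI1A TTAA site, 163 bases past the start of the RefSeq gene span, was hit in 6 of the 27 libraries, all of them wild-type piggyBac libraries, with heights of 6 to 31. The CTAA site, 73 bases past that start, was listed in 2 libraries and differs from the TTAA motif. The first TCF7L2 site lies 26 bases before the start of the gene span and was hit in 2 libraries, both WT_hyPB, with heights of 5 and 8. The other TCF7L2 site belongs to an internal start and was hit once. TTAA reads the same on both strands and occurs in 46.1% of the 34961 promoter windows of RefSeq. In such windows, between 95.7% and 98.7% of the listed sites of each group fell on TTAA. The most frequently hit positions of the locus lie outside these windows, and exons and introns were not assigned.

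VTI1A took a large number of insertions in every group. WT_PB libraries held 571, 463 and 575 VTI1A sites, which is 13.1, 13.3 and 13.7 of 10000 sites. WT_hyPB libraries held 615, 627 and 699, WT_rePB libraries 661, 687 and 634, and WT_rehyPB libraries 426, 478 and 527. Per 10000 sites these groups averaged 15.2 ± 0.29, 11.9 ± 0.20 and 12.7 ± 0.37 (SD, n = 3). The ranges of WT_PB, WT_hyPB and WT_rePB do not overlap one another, and WT_rehyPB lies between WT_rePB and WT_PB, with its highest library level with the lowest of WT_PB.

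The shallow libraries listed fewer VTI1A sites, but these made up a larger part of each library. Short_PB libraries held 31, 36 and 36 VTI1A sites, an average of 37.6 ± 3.36 of 10000 (SD, n = 3). Short_hyPB libraries held 45, 40 and 49, an average of 61.3 ± 3.71. Sym_rePB libraries held 30, 21 and 28, an average of 85.7 ± 9.83, and sym_rehyPB libraries 32, 34 and 33, an average of 80.9 ± 8.62. The 2 symmetric groups overlap, and both lie above short_hyPB. WT_PBat libraries held 21, 20 and 28 VTI1A sites, an average of 29.9 ± 1.42, which lies below short_PB without overlap.

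**Figure D1:**
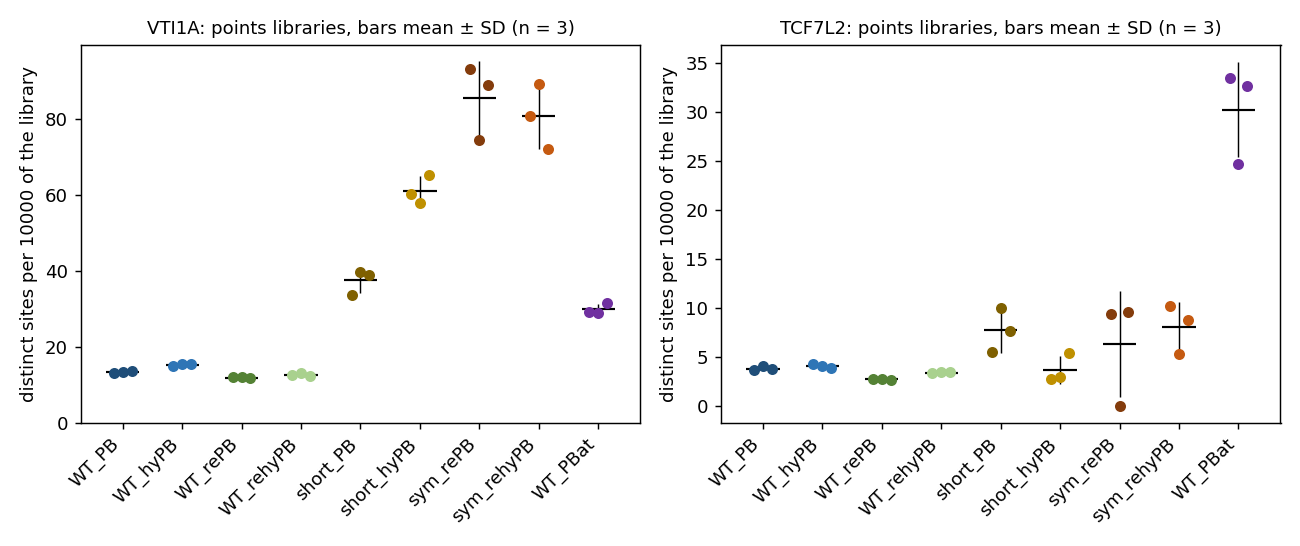
Distinct sites per 10000 sites of the library in VTI1A (left) and TCF7L2 (right), by group. Points are libraries, horizontal bars the mean and vertical bars the SD (n = 3). VTI1A averages 85.7 in sym_rePB, and TCF7L2 averages 30.2 in WT_PBat.

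The number of sites in a library separates the groups with low and high levels. Short_hyPB and WT_PBat libraries held like numbers of sites, 6896 to 7505 and 6902 to 8873, and averaged 61.3 and 29.9. Among the short and symmetric groups the level was higher where libraries held fewer sites. Sym_rePB averaged 85.7 with 2814 to 3212 sites, sym_rehyPB 80.9 with 3801 to 4570, and short_PB 37.6 with 9027 to 9212. Depth, transposon and enzyme cannot be told apart there, and the part of depth was not tested. Among the 2814 tallest sites of each library, VTI1A held 16 to 26 sites in WT_PB, 22 to 29 in WT_hyPB, 21 to 25 in WT_rePB and 12 to 16 in WT_rehyPB. It held 9 to 17 in short_PB, 22 to 25 in short_hyPB, 21 to 30 in sym_rePB, 27 to 34 in sym_rehyPB and 8 to 11 in WT_PBat. At this equal number of sites WT_PB overlaps short_PB, WT_hyPB overlaps short_hyPB and WT_rePB overlaps sym_rePB. WT_rehyPB stays below sym_rehyPB without overlap, and WT_PBat now lies below WT_PB without overlap. Only the number of sites is matched here, not the depth of reading. Height is itself a read count, and the lowest height kept was 100 to 110 in the wild-type piggyBac libraries and 5 to 10 in the others, so the tallest sites are a selected part of a deep library. Ties at the lowest height kept were filled by chromosome name, 1 first and then 10, which can favour this locus where the cut is low. Sym_rehyPB replicate 1 kept all 32 of its VTI1A sites, with 2814 of its 3950 sites kept. Replicate 3 kept 27 of 33, with 2814 of 4570.

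Among 19974 protein-coding genes, VTI1A ranked between 2 and 4 by mean sites per 10000 in all 9 groups. Among the 3351 genes of at least 100 kb it ranked between 3 and 18 by sites per kb of gene. In WT_PB it had 1.31 sites per kb against a median of 0.150 over these genes, and in short_PB 0.0841 against 0.00204. Of the 27 other protein-coding genes within 2 Mb, 26 held a site. Each held fewer sites than VTI1A over all libraries, and 26 held fewer than TCF7L2, but most are much shorter. The 3 most-hit neighbours were ABLIM1 with 1913 sites in all, ACSL5, an acyl-CoA synthetase gene just upstream of VTI1A, with 1018, and RBM20 with 969. ACSL5 had 1.92 of 10000 sites in WT_PB, 8.02 in short_PB, 19.0 in sym_rePB and 1.81 in WT_PBat. Per kb of gene, ACSL5 had 1.40 sites in WT_PB against 1.31 in VTI1A, 0.135 against 0.0841 in short_PB and 0.104 against 0.0645 in sym_rePB. Its mean was above that of VTI1A in 6 of the 8 piggyBac groups, where it was the only such neighbour. By contrast, in WT_PBat it had 0.0246 against 0.0563, and DUSP5 was the 1 denser neighbour there. The median neighbour had 0.262 sites per kb in WT_PB.

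The level of VTI1A over the 9 groups was most like that of NSMCE2 (Pearson r = 0.996 between log2 group means), PCDH7 (0.995), ANXA3 (0.994), MTHFD1L (0.992) and ADORA2B (0.991). This is a description over 9 points that share their libraries and fall into 2 classes of depth. The 66 genes with a site in every library, from which these 5 came, had a median r of 0.918 with VTI1A, and TCF7L2, which was absent from 1 library, had 0.378. PCDH7, the most-hit gene of many of these libraries, had 34.3 of 10000 sites in WT_PB and 261 in sym_rePB. ZBTB20, another often hit gene, had 16.9 in WT_PB and 8.91 in sym_rePB. VMP1 had 4.34 in WT_PB, 36.2 in sym_rePB and 32.3 in WT_PBat.

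Within VTI1A the sites were crowded into a stretch from 20 to 120 kb past the start of the gene, chr10:112466988-112566987, which is 24.5% of its length. These bounds were chosen after the profile was seen, so the shares are a description. WT_PB libraries had 338 of 571, 286 of 463 and 341 of 575 VTI1A sites there. That is 3.22 ± 0.31 sites per kb, against 0.696 ± 0.11 in the rest of the gene (SD, n = 3). WT_rePB was the most even of the groups, with 49.2%, 49.9% and 54.4% of its VTI1A sites in the stretch. The stretch held between 72.2% and 90.3% in short_PB, between 87.8% and 95.6% in short_hyPB, and between 90.5% and 93.9% in the symmetric groups. In WT_PBat it held 81.0%, 85.0% and 71.4%. A separate search for the densest 100 kb in each library, in steps of 5 kb, found a window that starts between 0 and 30 kb past the gene start in all 27 libraries, and at 20 or 25 kb in all 12 wild-type piggyBac libraries.

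**Figure D2:**
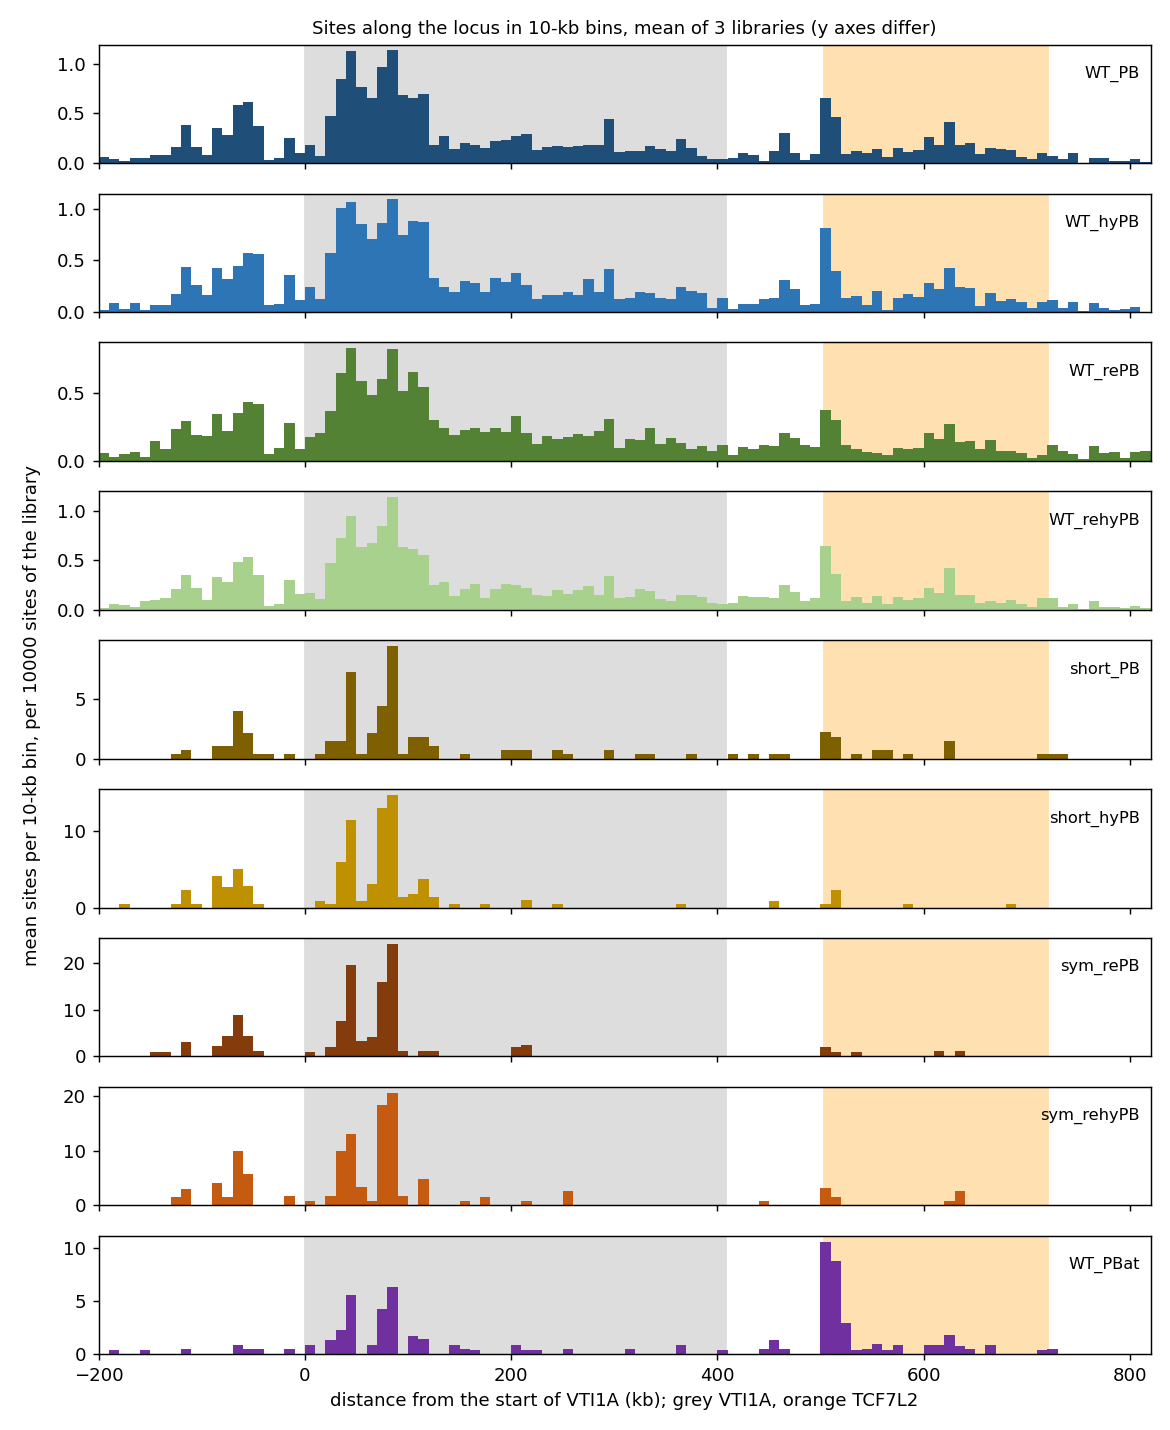
Mean distinct sites per 10-kb bin, per 10000 sites of the library, against distance from the start of VTI1A in kb, for each group (mean of 3 libraries, y axes differ). Grey marks VTI1A and orange TCF7L2. The bins from 40 to 50 and 70 to 90 kb stand out in the shallow groups, and the bins at the start of TCF7L2 are the highest of the locus in WT_PBat.

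The stretch itself had 2 summits, from 40 to 50 kb and from 70 to 90 kb. In the short and symmetric groups and in WT_PBat, between 60.5% and 78.9% of the sites of the stretch lay in these 30 kb. In the wild-type piggyBac groups 34.4% to 42.7% did. Among the 2814 tallest sites the same share was 60.0% to 85.7% in the wild-type piggyBac libraries and 57.1% to 87.5% in the others, so the ranges overlap at this number of sites, though not at the same height.

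The planned comparison of position was the share of VTI1A sites upstream of the midpoint of the gene, called the upstream share. It was 74.3%, 76.0% and 74.6% in WT_PB and 76.9%, 75.3% and 72.0% in WT_hyPB. It was 70.2%, 71.2% and 73.3% in WT_rePB and 75.6%, 73.2% and 72.9% in WT_rehyPB. The share was 93.5%, 83.3% and 91.7% in short_PB, and 97.8%, 97.5% and 95.9% in short_hyPB. It was 96.7%, 90.5% and 96.4% in sym_rePB, and 93.8%, 94.1% and 100.0% in sym_rehyPB. WT_PBat had 90.5%, 90.0% and 82.1%. No wild-type piggyBac library reached the level of any other library.

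The short transposon was 18.4 percentage points higher than its wild-type counterparts over 2 pairs of groups, and above them in 6 of 6 libraries (two-sided exact permutation test within pairs, p = 0.005, adjusted p = 0.02 over 12 tests). The symmetric transposon was 22.5 points higher, in 6 of 6 libraries (exact permutation p = 0.005, adjusted p = 0.02). For both, 0.005 is the smallest p that the design allows. Among the 2814 tallest sites these differences were not seen: the short transposon differed by -4.88 points (adjusted p = 0.48) and the symmetric by 2.05 points (adjusted p = 0.74), with 85.7% to 100.0% of the tallest VTI1A sites of every wild-type piggyBac library upstream of the midpoint. With 1 replicate number left out, the smallest p of these 2 tests is 0.0556, so they cannot reach the threshold. With exchange only between same-numbered libraries, both reached the smallest permutation p of 0.0312 and did not pass (adjusted p = 0.122). In these settings the differences stayed between 17.4 and 23.7 points.

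The remaining position effects did not pass the threshold. Hyperactive enzymes were 2.76 points higher over 4 pairs (exact permutation p = 0.0333, adjusted p = 0.0798), with pair differences of -0.247, 2.32, 7.55 and 1.43 points. Re-engineered enzymes differed by -2.11 points, at -3.39 and -0.825 in the 2 pairs (exact permutation p = 0.08, adjusted p = 0.133). WT_PBat lay 12.6 points above WT_PB (exact permutation p = 0.1, the smallest that 3 against 3 allows, adjusted p = 0.133), without overlap, and differed by -1.98 points from short_PB (exact permutation p = 0.5, adjusted p = 0.545). Among the tallest sites WT_PBat differed by -9.70 points from WT_PB (adjusted p = 0.74).

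**Figure D3:**
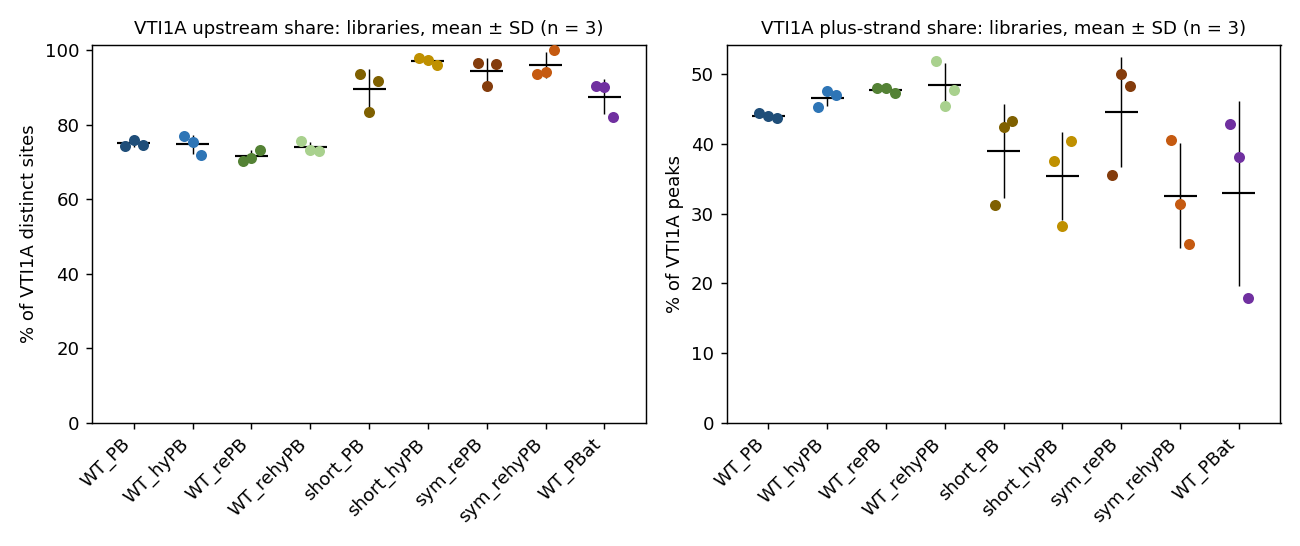
Share of VTI1A sites upstream of the midpoint of the gene (left) and share of VTI1A peaks on the plus strand (right), in percent, by group. Points are libraries, horizontal bars the mean and vertical bars the SD (n = 3). Upstream shares are 70.2% to 76.9% in the wild-type piggyBac libraries and 82.1% or more in the others.

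Orientation is the strand of the peak, and VTI1A is a plus-strand gene, so plus peaks run with the gene. Over the 8067 plus-strand genes of the promoter table, 35.2% to 39.6% of peaks in the wild-type piggyBac libraries and 39.6% to 44.0% in the other libraries were on the plus strand. Over whole libraries the share was between 47.7% and 50.7%. In VTI1A the plus share was 44.5%, 44.0% and 43.8% in WT_PB, 45.3%, 47.6% and 47.0% in WT_hyPB, 48.0%, 48.1% and 47.3% in WT_rePB, and 51.9%, 45.5% and 47.8% in WT_rehyPB. All 12 of these lie above the share over plus-strand genes in the same library, while 9 of the 15 other libraries lie below it.

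In the shallow groups the VTI1A plus share rested on fewer peaks and spread more. It was 31.2%, 42.5% and 43.2% in short_PB, and 37.5%, 28.3% and 40.4% in short_hyPB. It was 35.5%, 50.0% and 48.3% in sym_rePB, and 40.6%, 31.4% and 25.7% in sym_rehyPB. WT_PBat had 42.9%, 38.1% and 17.9%. The short transposon differed by -8.16 points from its counterparts over the 2 pairs (exact permutation p = 0.005, adjusted p = 0.02), lower in 6 of 6 libraries. That call was lost with the linked libraries averaged (adjusted p = 0.06), with peaks of height 10 or more (adjusted p = 0.12), and among the tallest sites, where the short transposon was 2.57 points higher (adjusted p = 0.74). Re-engineered enzymes were 2.75 points higher (exact permutation p = 0.02, adjusted p = 0.06), and 3.69 points higher with both strands of a position merged (adjusted p = 0.045). The symmetric transposon differed by -9.51 points (exact permutation p = 0.05, adjusted p = 0.1), by -0.380 with peaks of height 10 or more (adjusted p = 0.9) and by -3.91 among the tallest sites (adjusted p = 0.74), and hyperactive enzymes by -3.11 points (exact permutation p = 0.202, adjusted p = 0.243). WT_PBat differed by -11.1 points from WT_PB (exact permutation p = 0.1, adjusted p = 0.133) and by -6.06 points from short_PB (exact permutation p = 0.6, adjusted p = 0.6).

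The same positions of VTI1A came back in many libraries. Of the 2073 positions, 671 (32.4%) were listed in 1 library, 137 in 10 or more and 17 in 15 or more, and all 17 lie in the stretch from 20 to 120 kb. That stretch held 857 positions, 1 per 117 bases. Position 112525370, 78.4 kb past the start, was listed in 24 libraries, among them all 12 wild-type piggyBac libraries, 5 short, 5 symmetric and 2 piggyBat libraries. Position 112490901 was listed in 22 libraries, 3 of them piggyBat, and position 112531639 in 22, none of them piggyBat. Both orientations were seen at 782 positions (37.7%). At 112507931, 18 of 19 peaks were on the plus strand, and at 112492102, 20 of 24 were on the minus strand.

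Peak height in VTI1A was above that of the library. The median height of VTI1A sites was 14 to 19 in the 12 wild-type piggyBac libraries, where the median of all sites was 10 to 13, and it was the higher in 12 of 12. In the other groups the VTI1A median was 6 to 9 and was above the library's in 10 of 15. Height is a count of PCR reads without molecular identifiers. The tallest VTI1A peak of a wild-type piggyBac library was at position 112527419 on the minus strand in 8 of the 12, with heights of 293 to 437, and at the nearby 112527378 in 3, with heights of 441 to 451. In the other 15 libraries position 112530958 on the plus strand was the tallest most often, in 5, with heights of 22 to 45.

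The gap between the genes held few sites, but it is short. WT_PB libraries had 44, 34 and 52 there, and WT_rePB libraries 65, 66 and 61. Per kb, the gap had 0.457 sites in WT_PB against 0.696 in TCF7L2, and 0.675 against 0.685 in WT_rePB, where the gap and TCF7L2 overlap. No gap site was listed in the 3 sym_rePB libraries, where a count of 0 allows up to 9.34 to 10.7 of 10000 sites by counting error alone. WT_PBat libraries had 2, 4 and 1.

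Per kb of gene, TCF7L2 had fewer sites than VTI1A in the piggyBac groups, with 0.696 against 1.31 in WT_PB and 0.0322 against 0.0841 in short_PB, and more in WT_PBat, with 0.107 against 0.0563. WT_PB libraries held 159, 139 and 156 TCF7L2 sites, which is 3.64, 4.01 and 3.71 of 10000 sites. WT_hyPB libraries held 176, 163 and 176, an average of 4.05 ± 0.20 of 10000, WT_rePB libraries 148, 157 and 142, an average of 2.69 ± 0.07, and WT_rehyPB libraries 112, 124 and 145, an average of 3.37 ± 0.03 (SD, n = 3). WT_PBat libraries held 24, 17 and 29, which is 33.4, 24.6 and 32.7 of 10000. No other library exceeded 10.1 of 10000, so piggyBat stands apart from all 8 piggyBac groups.

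The short and symmetric groups rest on few TCF7L2 sites. Short_PB libraries held 5, 9 and 7, an average of 7.67 ± 2.27 of 10000 (SD, n = 3), and short_hyPB libraries 2, 2 and 4, an average of 3.64 ± 1.47. Sym_rePB libraries held 3, 0 and 3, and sym_rehyPB libraries 4, 2 and 4, an average of 8.05 ± 2.51. The 0 in sym_rePB replicate 2 allows up to 10.7 of 10000 by counting error alone. By mean sites per 10000, TCF7L2 ranked 3 of the 19974 protein-coding genes in WT_PBat, and between 24 and 163 in the piggyBac groups. By sites per kb it ranked 7 of 3351 long genes in WT_PBat, where VTI1A ranked 18.

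TCF7L2 was tested with all coding genes in 1 rate model whose spread is moderated across genes with limma. The planned limma voom test made many false calls on simulated data between groups of unequal depth and was replaced after the data were seen, as described with the processing. WT_PBat exceeded WT_PB by 2.86 ± 0.28 (SE) on the scale of log2(sites per 10000 + 0.5), in 3 of 3 libraries (adjusted p = 5.57e-12 over 6980 genes). TCF7L2 was 1 of 292 genes called in that comparison (4.18%). The fit with 1 of the 2 linked piggyBat libraries gave 2.79 (adjusted p = 1.43e-11). The planned voom test gave 3.03 (adjusted p = 2.62e-05), but it called 4200 of the 6980 genes, with a median of 1.19 over all genes. An exact permutation of the 3 against 3 libraries cannot go below p = 0.1, which it reached. Depth differs between these groups. Among the 2814 tallest sites, TCF7L2 held 9, 9 and 12 sites in WT_PBat, 1, 3 and 1 in WT_PB, and 0 to 4 in every other library. Ties at the cut were filled by chromosome name here too.

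Against short_PB, a group of like depth set beside the same piggyBat libraries, piggyBat was higher by 1.93 ± 0.55 (SE), in 3 of 3 libraries, with 3.94 times the mean share. That difference did not pass (adjusted p = 0.103, 24 of 6980 genes called, 0.344%). It passed with voom (1.94, adjusted p = 0.0469), which called 937 genes. It also passed with all genes that have a site (adjusted p = 0.00351) and with 1 dispersion over all libraries (adjusted p = 1.57e-05). The difference did not pass with limma-trend (adjusted p = 0.0766) or with dispersion by depth class without trend (adjusted p = 0.295). Nor did it pass with a replicate block (adjusted p = 0.42), with peaks of height 10 or more (adjusted p = 0.872) or with any replicate number left out. This call therefore turns on the form of the test.

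TCF7L2 took a smaller share of the sites with re-engineered enzymes. By number, WT_rePB libraries averaged 149.0 TCF7L2 sites against 151.3 in WT_PB, and they listed more sites in all. WT_rehyPB libraries averaged 127.0 against 171.7 in WT_hyPB. PCDH7 and ZBTB20 had smaller shares too, with 23.1 and 11.9 of 10000 in WT_rePB against 34.3 and 16.9 in WT_PB. WT_rePB had 2.69, 2.75 and 2.62 of 10000 sites against 3.64, 4.01 and 3.71 in WT_PB, and WT_rehyPB had 3.33, 3.39 and 3.39 against 4.26, 3.99 and 3.88 in WT_hyPB, with no overlap in either pair. The difference was -0.33 ± 0.06 (SE) on the log2 scale, in 6 of 6 libraries (adjusted p = 0.000271), and TCF7L2 was 1 of 151 genes called (2.16%). The dispersion of this fit was at its floor of 1. Its SE and p therefore cover the counting error of sites and not the spread between libraries. An exact permutation test over the libraries gave p = 0.005 (adjusted p = 0.03 over 6 effects). The planned voom test gave -0.37 (adjusted p = 1) and limma-trend -0.33 (adjusted p = 1), so neither made this call. With 1 dispersion over all libraries the rate model gave the same difference and SE (adjusted p = 1.47e-05). The floor held there too, so that setting is no separate check.

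The other enzyme and transposon effects on TCF7L2 did not pass. The symmetric transposon was 1.15 ± 0.57 (SE) higher (adjusted p = 0.996, 134 of 6980 genes called, 1.92%). That difference passed with 1 dispersion over all libraries (adjusted p = 0.0482, 153 genes called). It also passed with voom (1.25, adjusted p = 0.000545), but voom called 6127 of the 6980 genes. The voom median over all genes was 1.96, above the value of TCF7L2. The difference did not pass with limma-trend (adjusted p = 0.245) or with dispersion by depth class without trend (adjusted p = 0.38). The short transposon was 0.40 ± 0.44 (SE) higher (adjusted p = 0.982, 118 genes called, 1.69%). Hyperactive enzymes differed by -0.08 ± 0.36 (SE, adjusted p = 1). No gene was called for that effect (0%), 13 had an unadjusted p under 0.05, voom called 23 and limma-trend 52. None of the tests of a difference between pairs of groups passed for TCF7L2.

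The first 20 kb of TCF7L2, chr10:112950247-112970246, is 9.2% of its length and held a large part of its insertions. These bounds too were chosen after the profile was seen. In WT_PBat it held 16 of 24, 14 of 17 and 19 of 29 sites, or 22.3, 20.3 and 21.4 of 10000. In WT_PB it held 39 of 159, 35 of 139 and 41 of 156, or 0.892, 1.01 and 0.974 of 10000. In WT_rePB it held 31 of 148, 35 of 157 and 32 of 142. In the short and symmetric groups, 25 of 45 TCF7L2 sites lay there. In the 4 wild-type piggyBac groups together, 421 peaks of this stretch lay in the first 10 kb and 84 in the next.

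**Figure D4:**
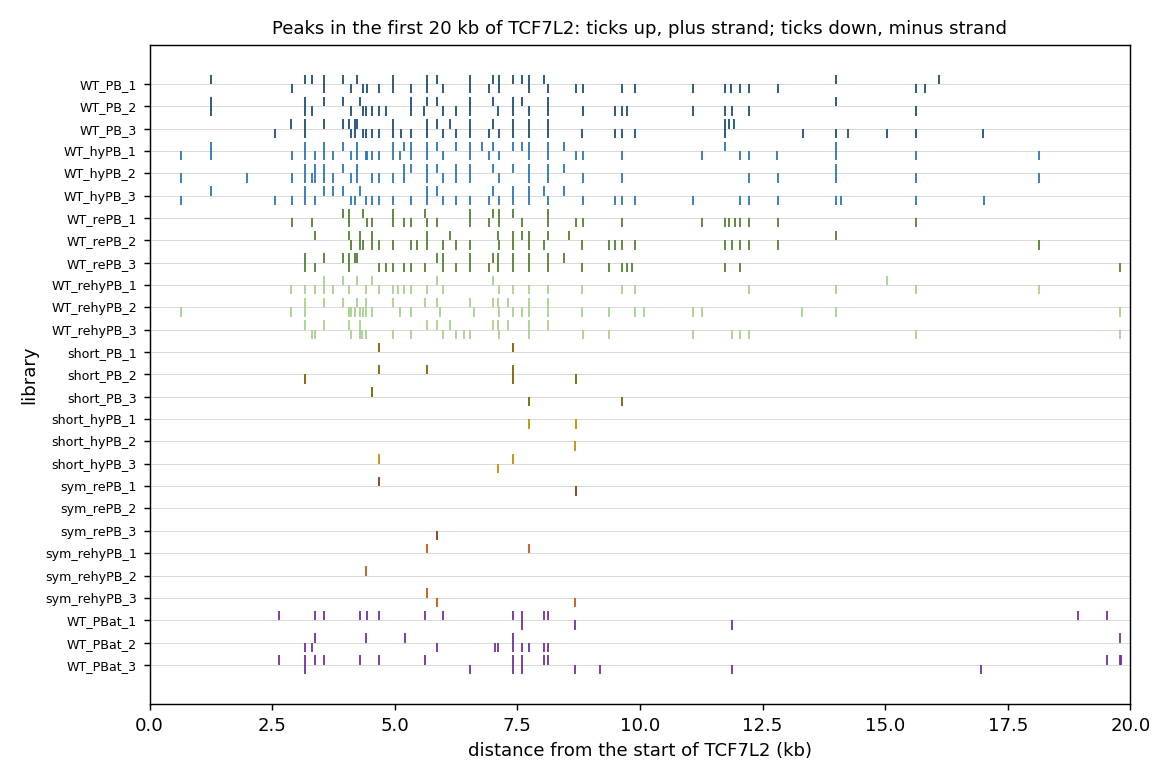
Peaks in the first 20 kb of TCF7L2, one row per library, against distance from the start of the gene in kb. Ticks above a row are plus-strand peaks and ticks below are minus-strand peaks. The same positions recur between libraries, and from 10 to 20 kb the wild-type piggyBac libraries have 11 plus and 73 minus peaks.

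Of the 668 TCF7L2 positions, 286 (42.8%) were listed in 1 library and 30 in 10 or more. The first 20 kb held 18 of these 30 recurrent positions, and 105 of the 668, and the rest of the gene held 12. Position 112957659, 7.41 kb past the start, was listed in 17 libraries, of which 11 were wild-type piggyBac, 3 short and 3 piggyBat. Position 112958375 was listed in 14 libraries, 11 wild-type piggyBac and 3 piggyBat. Outside the stretch, position 113072957, 122.7 kb past the start, was listed in 14 libraries, all 12 wild-type piggyBac and 2 piggyBat, and position 113069961 in 12, all of them wild-type piggyBac. Position 112953626, within the stretch, was listed in 10, of which 7 were wild-type piggyBac and 3 piggyBat. The piggyBat libraries had 29 distinct positions in the first 20 kb, and 20 of them were also listed in a wild-type piggyBac library. Replicates 1 and 3, the linked pair, shared 13 of these positions, and of the 14 positions of replicate 2, 7 were also in replicate 1 or 3.

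Sharing with wild-type piggyBac can be set against whole libraries. Of all sites of the WT_PBat libraries, 73.4% to 73.9% were also listed in a wild-type piggyBac library. In VTI1A the share was 90.5%, 85.0% and 96.4%, and in TCF7L2 75.0%, 82.4% and 65.5%. In the short and symmetric libraries 80.1% to 88.4% of all sites and 73.3% to 96.9% of VTI1A sites were shared with wild-type piggyBac.

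The plus strand was the rarer orientation in TCF7L2 in the wild-type piggyBac libraries. The plus share was 31.6%, 26.2% and 32.0% in WT_PB, 27.6%, 28.6% and 28.8% in WT_hyPB, and between 29.1% and 33.5% in WT_rePB and WT_rehyPB. All 12 lie below the share over plus-strand genes in the same library, whereas all 12 VTI1A shares lie above it. In the short and symmetric groups, 18 of 46 TCF7L2 peaks were on the plus strand. With 2 to 10 peaks each, the 11 libraries that had any ranged from 0% to 75.0%, and 5 of them had as many plus as minus peaks or more. The imbalance was least in the first 10 kb, where the 4 wild-type piggyBac groups together had 162 plus and 259 minus peaks, and greater from 10 to 20 kb, with 11 plus and 73 minus. WT_PBat had 27 plus and 18 minus peaks in the first 10 kb, and its plus shares over the gene were 72.0%, 33.3% and 56.2%, which do not point one way. The orientation of TCF7L2 sites was not tested.

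Heights in TCF7L2 were close to those of the library. The median was 11 to 18 in the wild-type piggyBac libraries, above the library's in 11 of 12, and 7, 8 and 9 in WT_PBat. Position 112954482 on the plus strand carried the tallest TCF7L2 peak in 5 of 12 wild-type piggyBac libraries, with heights of 96 to 117. In WT_PBat the tallest peaks were 46, 24 and 34 high, at 7.59, 3.18 and 5.62 kb past the start.

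Other genes of the same pathways were read beside the share called over all genes. Of 40 genes of Wnt signalling around TCF7L2 (partners, brakes and targets of TCF factors), 22 had enough sites to be tested. CTBP2, a corepressor gene, rose with piggyBat against WT_PB by 1.86 ± 0.33 (SE, limma-moderated adjusted p = 3.56e-05), and RNF43, a ubiquitin ligase gene that limits Wnt receptors, fell by 0.33 ± 0.07 with re-engineered enzymes (adjusted p = 0.0032). Each is 1 of 22 tested, beside 4.18% and 2.16% of all genes, so neither count stands out. No other member of the list passed for any of the 6 effects. The list's median log2 difference was 0.47 for piggyBat against WT_PB, beside -0.47 over all 6980 genes. Against short_PB, of like depth, it was 0.76 beside 0, and for re-engineered enzymes 0.03 beside 0.02. Of 28 SNARE and SNARE assembly genes, 11 were tested, and only STX8, an endosomal syntaxin gene, passed, higher by 0.41 ± 0.08 with re-engineered enzymes (adjusted p = 0.00138), which is 1 of 11 beside 2.16% of all genes. The SNARE median was -0.60 for piggyBat against WT_PB, beside the same -0.47 over all genes.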

How the data were processed

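Each library was deposited as 1 list of peaks called separately per sample. The deposited values used are peak height, a signal (maximum coverage) per the file layout, not scaled to depth; the authors listed no peak under 5. Per the submitters' processing notes, cutadapt 3.4, HISAT2 2.2.1.0 and builds hg38 and GRCh38.p5 were used, with no roles named; the peak caller and removal of duplicate reads are not given in the sources used here. The last column of each file, other by unit, is a constant taken as the library's total of reads in the deposited lists and was not used in a result. Reads without molecular identifiers are not independent molecules, so intervals and floors cover counting error only, a floor being 3 counts.

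A site was the start of a plus peak or the end minus 3 of a minus peak, and both strands of a position were merged into 1 distinct site except for orientation. Genes are RefSeq GRCh38.p14 spans. The members, lists and genes named were chosen with earlier results of these data known. Named genes were the members, PCDH7, ZBTB20 and VMP1, the 5 genes most like VTI1A, the 3 most-hit of the neighbours within 2 Mb, and list members that passed. Shares of VTI1A were compared by two-sided exact permutation within pairs of groups, with Benjamini-Hochberg adjustment over 12 tests (Python 3.11.15, numpy 2.4.6, statsmodels 0.14.6).

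For TCF7L2, limma voom (limma 3.58.1, R 4.3.3) over coding genes with at least 10 sites in 3 libraries was planned. On simulated data it made many false calls between groups of unequal depth. It was replaced, with TCF7L2's values already seen, by a quasi-Poisson test of group rates on the log2(sites per 10000 + 0.5) scale. Its dispersion was estimated separately for deep and shallow libraries, moderated with a trend by limma and held at 1 or more. At that floor the SE covers counting error only. This was the last of 5 forms tried, chosen by its false calls on simulated data. The simulation drew every library from the gene shares of WT_PB, scaled by library size, which is close to the model of the chosen test. It held no change of a gene's share with depth, so it cannot show that calls between deep and shallow libraries are sound. Voom and the 2 earlier quasi-Poisson forms are given as alternatives, and the remaining form was not kept. Replicate numbers do not pair libraries (correlations of same-numbered deviations -0.0154 to 0.0573).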

Additional observations from a re-analysis of the deposited data

How the results depend on the processing

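The fit of TCF7L2 was changed after its values were seen, and 3 of its results (the symmetric transposon, piggyBat against short_PB and re-engineered enzymes) pass or fail with the form of the test. With 1 dispersion over all libraries the symmetric transposon (1.15) and piggyBat against short_PB (1.93) passed. With limma voom, the planned test, they passed too (1.25 and 1.94), re-engineered enzymes did not (-0.37) and hyperactive enzymes turned to 0.03. Limma-trend gave -0.33 for re-engineered enzymes, which did not pass, and 0.14 for hyperactive enzymes. The exact permutation of log2 levels also gave 0.14 for hyperactive enzymes, while the difference in sites per 10000 was -0.333. The permutation of log2 levels gave 2.83 for piggyBat against WT_PB, which it cannot call with 3 against 3. With no filter on low genes piggyBat against short_PB passed (1.93). Among the tallest sites TCF7L2 was too rare for the planned filter; with genes of 1 site in 3 libraries, hyperactive enzymes gave 0.27, re-engineered -0.97 and piggyBat against WT_PB 2.49, none past the threshold. With peaks of height 10 or more, a group in the hyperactive, short and symmetric comparisons had no TCF7L2 site, so these have no value. These added settings were chosen after seeing the data.

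Calls over all genes moved by more than 1.5 times. In the order hyperactive, re-engineered, short, symmetric, piggyBat against WT_PB and against short_PB, they were 0, 151, 118, 134, 292 and 24. Voom called 23, 15, 4736, 6127, 4200 and 937, limma-trend 52, 69, 2768, 4280, 2708 and 758, 1 pooled dispersion 2, 228, 161, 153, 339 and 38, and dispersion by depth class without trend 0, 148, 37, 64, 116 and 0. No filter gave 48 for re-engineered enzymes, linked libraries as 1 gave 194 for piggyBat against WT_PB, and height 10 gave 105 and 0 for the piggyBat comparisons. The tallest sites gave no call. Leaving out a replicate gave 34 to 49 for re-engineered, 28 to 51 for short, 59 to 79 for symmetric, and 145 to 217 and 0 to 2 for the piggyBat comparisons.

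For the upstream share, the tallest sites gave -4.88 points for the short transposon, 2.05 for the symmetric, -9.70 for piggyBat against WT_PB and 0.134 against short_PB. Leaving out a replicate gave 17.4 to 20.3 (short), 21.2 to 23.7 (symmetric) and -6.30 to 1.80 (piggyBat against short_PB). For the plus-strand share of the short transposon, height 10 gave -6.91, the tallest sites 2.57, linked libraries averaged -8.21 and leaving out a replicate -10.5 to -6.98. For re-engineered enzymes merged strands gave 3.69, and for piggyBat against short_PB leaving out a replicate gave -14.9 to 3.60.

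Replicate numbers are shared by all groups but did not pair libraries. With a replicate block the upstream differences were 18.4 (short) and 22.5 (symmetric) and the plus-strand difference -8.16 (short), each with adjusted p = 0.122, since fewer exchanges are possible. The block changed no TCF7L2 call, and for re-engineered enzymes, where the dispersion was at its floor, it left the SE unchanged. Depth limits all values of the shallow groups, where TCF7L2 rests on at most 9 sites per piggyBac library.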
